A study of Mus musculus with 6 samples.

Results

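Smooth muscle actin and its partners in the contractile apparatus were followed in lenses of mouse embryos at stage E15.5. The 10 genes were chosen by name, with earlier results of these data known, as smooth muscle actins (Acta2, Actg2), transgelins (Tagln, Tagln2), calponins (Cnn1, Cnn2, Cnn3), tropomyosins (Tpm1, Tpm2) and a regulatory myosin light chain (Myl9). All 10 were found among the 41128 features listed per library. The first group, called cKO here, had both Itgb1 alleles floxed and carried the MLR10 Cre transgene, on a mixed strain background, and pooled 30 lenses per replicate. Itgb1 encodes β1-integrin, the common partner of many integrin α chains, and MLR10 Cre is active in lens epithelial and fiber cells. The second group was C57Bl/6 wild type at the same stage, with neither Cre nor floxed alleles named in its labels, and pooled 75 lenses per replicate. Each group held 3 biological replicates of poly(A) RNA, and the wild-type records repeat those of an earlier series. Loss of Itgb1, Cre, strain, the number of lenses pooled and sequencing depth all separate these groups. Time and handling may do so too, since the wild-type records repeat an earlier series. The parts of all these in a difference cannot be told apart.

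Contractile actin filaments are built from an actin, with tropomyosin lying along the filament and calponin and transgelin bound to it. Myosin II pulls on the filament when its regulatory light chain is phosphorylated. Acta2, Tagln and Cnn1 are textbook genes of differentiated smooth muscle, and Acta2 also marks myofibroblasts, including those that lens epithelial cells form in some cataracts and after surgery. Many of these genes are transcribed through serum response factor (SRF), which binds the CArG box, whereas TEAD factors bind the motif GGAATG.

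The promoters of the members were searched for these motifs as a description of their sequence. RefSeq (GRCm38.p6) gave a start for 8 of the 10 genes, all but Tagln and Actg2, and the 250 bases before it were read. A CArG box (CC, then 6 letters that are each A or T, then GG) reads alike on both strands and was found in Cnn2 and Myl9, against 1.47% of 32851 RefSeq windows of this length. A CArG-like box, in which 1 of the 6 central letters is G or C, was found in Acta2 and Myl9, against 7.24% of the windows. GGAATG, searched on both strands, was found in Acta2, Tagln2 and Tpm1, against 12.6%. None of the 3 motifs was found in the windows of Cnn1, Cnn3 and Tpm2, which says only that these letters are not there. No match overlapped another. The matches are shown to give the letters around each, with the match in capitals. No relation between a match and the change of a gene was tested. For Cnn2 and Myl9 the window is printed up to the outermost GENCODE M21 start. For the others GENCODE transcripts cover the match, and only the match with 10 bases on each side is printed.
Acta2: gcagaacagaGGAATGcagtggaaga
Acta2: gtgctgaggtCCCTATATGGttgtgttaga
Acta2: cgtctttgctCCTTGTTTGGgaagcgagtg
Tagln2: ctttacggctCATTCCtgcctactga
Tagln2: agcgctccagCATTCCacgcggcggc
Cnn2: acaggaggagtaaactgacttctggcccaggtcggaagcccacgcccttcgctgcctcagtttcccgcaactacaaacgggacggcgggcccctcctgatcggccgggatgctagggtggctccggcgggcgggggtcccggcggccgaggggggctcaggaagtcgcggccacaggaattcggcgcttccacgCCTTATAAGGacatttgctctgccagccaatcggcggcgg
Tpm1: gctgtcctaaGGAATGcggtcgcccc
Myl9: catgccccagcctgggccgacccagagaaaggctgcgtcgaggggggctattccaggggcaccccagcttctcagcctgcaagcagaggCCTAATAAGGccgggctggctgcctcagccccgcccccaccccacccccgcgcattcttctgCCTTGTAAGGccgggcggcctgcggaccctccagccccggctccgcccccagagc

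Each sequence runs 5′ to 3′ toward the start of its gene. In Acta2 the CArG-like boxes CCCTATATGG (chr19:34255438-34255467 with its flanks, minus strand) and CCTTGTTTGG (chr19:34255388-34255417) begin 84 and 34 bases before the RefSeq start, and GGAATG (chr19:34255504-34255529) begins 146 bases before it. The Cnn2 window (chr10:79988350-79988583, plus strand) holds the CArG box CCTTATAAGG 56 bases before the start. The Myl9 window (chr2:156775214-156775419, plus strand) holds the CArG box CCTAATAAGG at 161 bases and the CArG-like box CCTTGTAAGG at 99 bases. Tagln2 holds CATTCC, the reverse complement of GGAATG, at 118 bases (chr1:172500118-172500143, plus strand) and at 80 bases (chr1:172500156-172500181). Tpm1 holds GGAATG at 56 bases (chr9:67049254-67049279, minus strand). GENCODE places the outermost start of the 8 genes 16 to 217 bases further upstream, so distances depend on the annotation. Whether any factor binds these letters in lens was not measured.

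Depth was 20036554 to 28095318 counted reads per cKO library and 10023049 to 11531139 per wild-type library. Levels are given as CPM (counts scaled to the total of the library) or, where genes are compared with each other, as RPKM (CPM per kilobase of gene length). Itgb1 stood at 236, 275 and 262 CPM in cKO replicates 1, 2 and 3 and at 402, 424 and 448 CPM in wild type, a log2 fold change of -0.72 (adjusted p = 1.63e-05 by limma). Reads of the deleted part and of the rest of Itgb1 were not separated. The lens label was met by the lens markers, 11 of 12 of which were measured at 1 CPM or more. Their summed level was 186468 to 212382 CPM in cKO and 195323 to 211700 CPM in wild type.

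Of the 10 genes, 8 passed the filter of at least 1 CPM in at least 3 libraries, and all 8 were above 1 CPM in every library. In cKO lenses 7 of these 8 were higher and 1 was lower at a Benjamini-Hochberg adjusted p under 0.05 (limma on log2(CPM + 1), over all 11941 genes tested). Among all genes tested, 20.9% were higher and 15.9% lower, or 36.9% in either direction. The cKO libraries all lay above the wild-type libraries for the 7 genes, as they did for 26.9% of all genes tested, and all below for Tpm2, as for 21.2%. The median log2 fold change of the 8 was 0.93, against 0.03 over all genes tested. Fold changes on this scale understate the change of low genes. In whole lenses, more cells of a type and more RNA per cell cannot be told apart. Nothing in the labels says whether replicates came from separate litters, so the p-values measure only the spread between these pools.

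**Figure D1:**
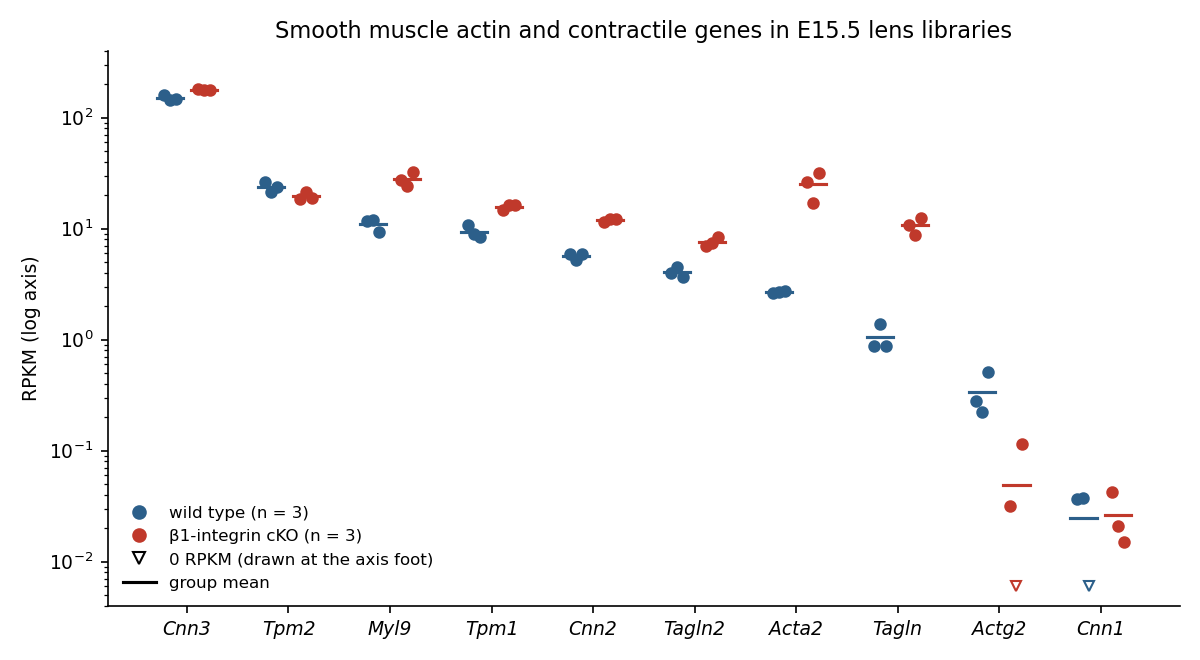
RPKM of each of the 10 genes (log axis, ordered by the wild-type mean) in the 3 wild-type (blue) and 3 cKO (red) libraries, with bars at the group means and open triangles for a value of 0. Acta2 and Tagln are the genes whose groups lie farthest apart, at 2.69 and 1.05 RPKM in wild type and 24.9 and 10.7 RPKM in cKO.

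Acta2 (ENSMUSG00000035783; GRCm38 chr19:34241090-34255590, minus strand) encodes the α-actin of vascular smooth muscle. It was at 46.3, 30.2 and 56.8 CPM in cKO replicates 1, 2 and 3 and at 4.68, 4.82 and 4.89 CPM in wild type. The wild-type libraries were close together, while the cKO libraries spread widely, and their lowest value was still far above the highest wild-type value. The means were 44.4 ± 13.4 and 4.80 ± 0.105 CPM (SD, n = 3 each), a ratio of 9.26. The log2 fold change was 2.92 (95% confidence interval 2.53 to 3.32, adjusted p = 9.70e-07 by limma). These values rest on 610 to 1596 reads in cKO and on 49 to 55 in wild type, where counting alone gives a coefficient of variation of 14.3% at the lowest count. The wild-type coefficient of variation of 2.19% is thus smaller than counting noise and does not measure the spread between lenses. Reads were 50 bases long, and 0.326% of the 50-base words of Acta2 transcripts occur in transcripts of another gene.

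Actg2 (ENSMUSG00000059430; chr6:83512905-83536265, minus strand), the γ-actin of enteric smooth muscle, did not follow Acta2. It was at 0.0499, 0 and 0.178 CPM in cKO and at 0.434, 0.351 and 0.798 CPM in wild type, below the filter and therefore without a test. Every cKO library was below every wild-type library, but on 6 reads in cKO and 17 in wild type over all replicates. In the fit without a filter on low values Actg2 was called lower (adjusted p = 0.0117, limma). The value of 0 in cKO replicate 2 allows up to 0.148 CPM (3 reads).

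Among all 6 actin genes, Acta2 remained a minor transcript. Its share of the summed actin RPKM was 3.56%, 2.63% and 5.03% in cKO and 0.418%, 0.439% and 0.444% in wild type. The groups did not overlap, and the exact two-sided permutation test gave p = 0.10, the smallest that 3 against 3 libraries allow. The cytoplasmic actins Actb and Actg1 together held 96.2% ± 1.23 of the actin RPKM in cKO and 99.4% ± 0.0964 in wild type (SD, n = 3 each). Neither passed the test, with log2 fold changes of 0.06 (adjusted p = 0.585, limma) for Actb and 0.03 (adjusted p = 0.752) for Actg1. The sign of Actb turned without cKO replicate 1, and that of Actg1 with RLE scaling and without wild-type replicate 1. Summed actin was 634 to 730 RPKM in cKO and 617 to 628 RPKM in wild type.

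Tagln (ENSMUSG00000032085; chr9:45929619-45936058, minus strand) encodes transgelin, an actin-bundling protein abundant in smooth muscle. It was at 17.1, 13.8 and 19.9 CPM in cKO and at 1.39, 2.19 and 1.40 CPM in wild type. All cKO libraries were high and all wild-type libraries were close to the filter, on only 14 to 25 reads each. The means of 16.9 ± 3.07 and 1.66 ± 0.462 CPM (SD, n = 3 each) had a ratio of 10.2, and the log2 fold change was 2.75 (95% confidence interval 2.42 to 3.09, adjusted p = 5.15e-08 by limma). Exons of other genes on the opposite strand, mostly of the antisense gene Gm48529, cover 67.9% of the exonic bases of Tagln. The TruSeq kit used keeps no strand information. Reads of Tagln and Gm48529 therefore cannot be told apart, and Gm48529 was not analysed here. The other overlapping gene, Pcsk7, was lower in cKO (12.6 CPM) than in wild type (18.2 CPM).

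Tagln2 (ENSMUSG00000026547; chr1:172500047-172507380, plus strand), the transgelin of most other cell types, rose less. It was at 14.4, 15.6 and 17.5 CPM in cKO and at 8.33, 9.47 and 7.68 CPM in wild type, and the groups did not overlap. Its log2 fold change was 0.83 (95% confidence interval 0.59 to 1.07, adjusted p = 0.000125 by limma). Tagln3, a transgelin known from neurons and not a member of the 10, rose from 0.905 ± 0.193 to 9.35 ± 2.18 CPM (SD, n = 3 each; log2 fold change 2.42, adjusted p = 3.37e-07). The make-up of the family was therefore different in the groups. Tagln2 held 69.1%, 69.3% and 70.8% of the summed transgelin RPKM in wild type and 29.8%, 29.7% and 29.1% in cKO. Tagln held 15.1% to 21.1% in wild type and 34.5% to 46.2% in cKO (exact permutation p = 0.10 for both shares, the smallest possible). The antisense overlap of Tagln enters these shares.

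Calponins bind actin and slow the myosin cycle. Cnn1 (ENSMUSG00000001349; chr9:22099216-22109630, plus strand), the calponin of differentiated smooth muscle, was nearly absent from the reads of both groups. It was at 0.0998, 0.0495 and 0.0356 CPM in cKO and at 0.0867, 0.0877 and 0 CPM in wild type, on 4 and 2 reads in all, and was not tested. The groups overlapped, and the value of 0 in wild-type replicate 3 allows up to 0.299 CPM. A difference in Cnn1 was thus not detectable at this depth, and its level in cKO was far below that of Acta2 or Tagln in the same libraries.

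Cnn2 (ENSMUSG00000004665; chr10:79988584-79996062, plus strand), a calponin of many cell types including fibroblasts, rose as well. It was at 28.1, 30.3 and 30.2 CPM in cKO and at 14.6, 12.7 and 14.5 CPM in wild type, with little spread in either group. The log2 fold change was 1.03 (95% confidence interval 0.84 to 1.23, adjusted p = 3.13e-06 by limma), and the ratio of the means was 2.12. Cnn3 (ENSMUSG00000053931; chr3:121426497-121458207, plus strand), the acidic calponin, was the most abundant of the 10 genes in both groups. It was at 361, 358 and 351 CPM in cKO and at 321, 287 and 296 CPM in wild type. The groups did not overlap but lay close together, at a log2 fold change of 0.24 (95% confidence interval 0.10 to 0.39, adjusted p = 0.0141 by limma). That call was lost without wild-type replicate 2 (adjusted p = 0.0840). Other genes hold 24.0% of the 50-base words of Cnn3, among them Gm42928, which overlaps 17.7% of its exonic bases on the opposite strand. Cnn3 kept most of the summed calponin RPKM, at 93.5% to 94.0% in cKO and 96.2% to 96.5% in wild type, while Cnn2 held 5.96% to 6.54% in cKO and 3.48% to 3.83% in wild type.

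The 2 tropomyosins went opposite ways. Tpm1 (ENSMUSG00000032366; chr9:67022590-67049406, minus strand), α-tropomyosin, was at 95.7, 106 and 105 CPM in cKO and at 69.4, 58.2 and 54.1 CPM in wild type. The groups were well apart, with a log2 fold change of 0.75 (95% confidence interval 0.55 to 0.95, adjusted p = 6.03e-05 by limma). Tpm2 (ENSMUSG00000028464; chr4:43514711-43523765, minus strand), β-tropomyosin, was at 53.6, 62.0 and 54.3 CPM in cKO and at 76.4, 62.2 and 69.5 CPM in wild type. Its groups nearly touched, since cKO replicate 2 and wild-type replicate 2 had almost the same value. Tpm2 was called lower at a log2 fold change of -0.29 (95% confidence interval -0.48 to -0.09, adjusted p = 0.0262 by limma). This call did not hold without a filter on low values, nor when cKO replicate 1, cKO replicate 3 or wild-type replicate 1 was left out, with adjusted p of up to 0.105. The tests count all transcripts of a gene, so smooth muscle and cytoplasmic isoforms of Tpm1 and Tpm2 were not separated.

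Summed over Tpm1 to Tpm4, tropomyosin RPKM overlapped between the groups, at 46.9 to 56.4 in cKO and 43.0 to 50.3 in wild type. Within that sum Tpm1 held 28.8% to 31.5% in cKO and 17.6% to 21.3% in wild type, and Tpm2 held 36.3% to 39.3% and 49.7% to 52.2% (exact permutation p = 0.10 for each, the smallest possible). Tpm3, a cytoplasmic tropomyosin with 23.2% of its words in other genes, did not pass the test (0.13 on the log2 scale, adjusted p = 0.289, limma). Tpm4 stood at 0.39 (adjusted p = 0.0547), and it did pass under 7 of 14 alternatives, among them TMM and RLE scaling, edgeR, DESeq2 and the fits that left out cKO replicate 1 or wild-type replicate 3.

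**Figure D2:**
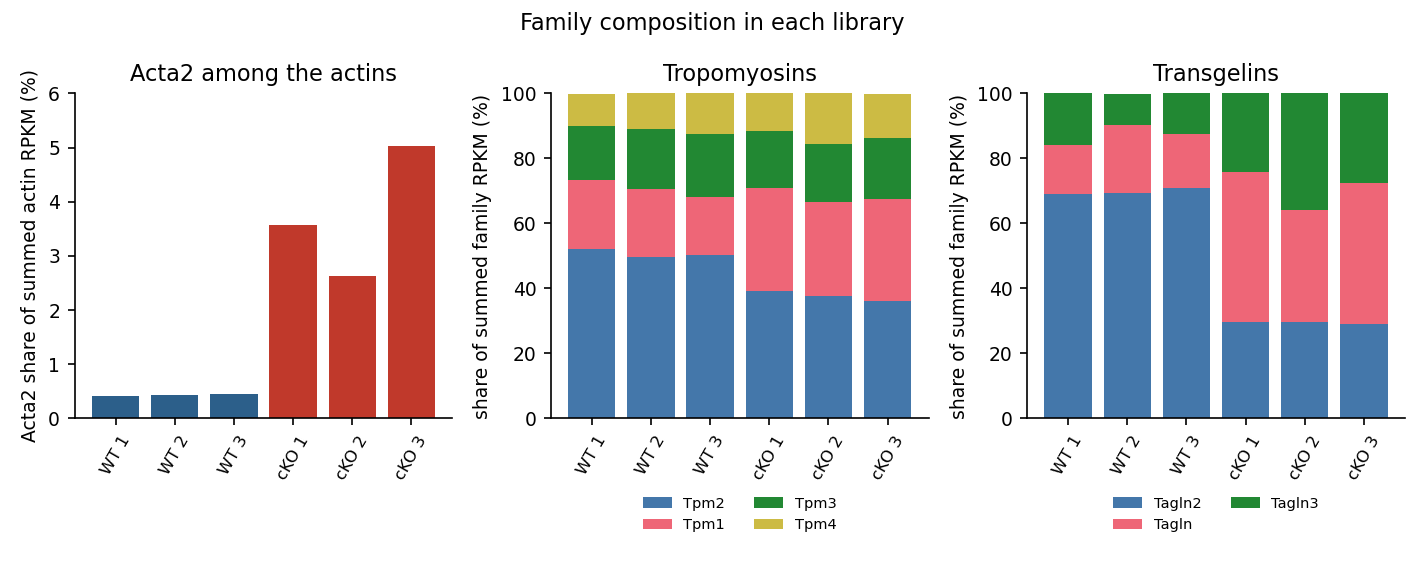
Share of Acta2 in the summed RPKM of 6 actin genes (left, axis to 6%) and make-up of the summed tropomyosin and transgelin RPKM (middle and right, stacked to 100%) in each library. Acta2 stays under 0.5% in the wild-type libraries and above 2.6% in the cKO libraries, and Tagln2 takes 69.1% to 70.8% of transgelin in wild type and 29.1% to 29.8% in cKO.

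Myl9 (ENSMUSG00000067818; chr2:156775420-156781658, plus strand) encodes the regulatory light chain of smooth muscle and nonmuscle myosin II. It was at 31.5, 28.3 and 37.4 CPM in cKO and at 13.7, 13.8 and 10.8 CPM in wild type. The groups were far apart, with the lowest cKO library well above the highest wild-type library. The log2 fold change was 1.28 (95% confidence interval 1.02 to 1.54, adjusted p = 4.83e-06 by limma). The related light chain genes did not rise with it, since Myl12b was lower in cKO (17.3 ± 1.05 against 23.9 ± 2.28 CPM, adjusted p = 0.00325) and Myl12a did not pass the test (log2 fold change -0.15, adjusted p = 0.240). The essential light chain gene Myl6 was higher (0.34, adjusted p = 0.00419).

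**Figure D3:**
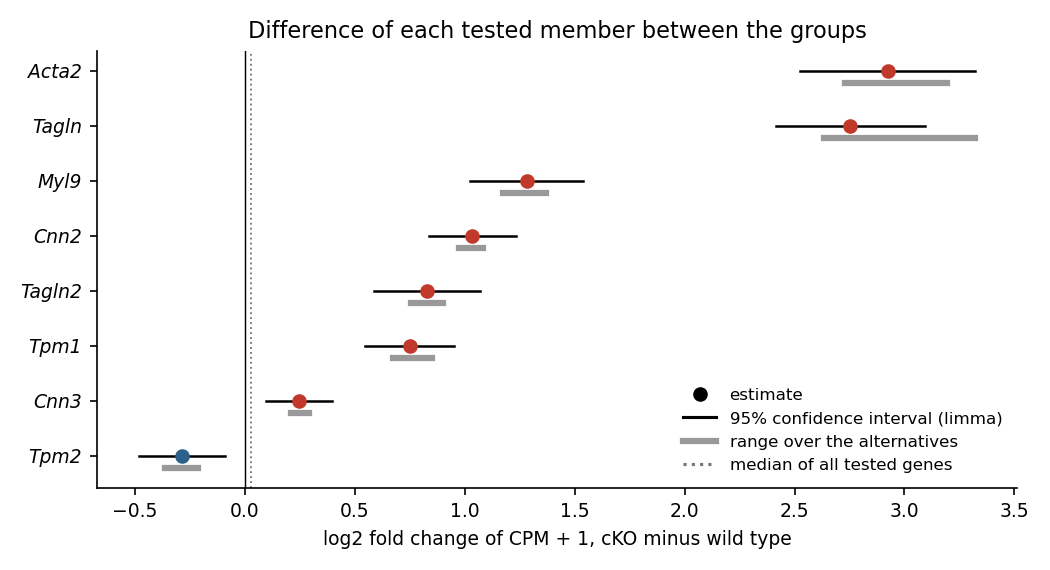
Log2 fold change of CPM + 1 (cKO minus wild type) of the 8 tested genes, with 95% confidence intervals (black) and the range over the alternatives tried (grey). Acta2 and Tagln lie between 2.53 and 3.32 and between 2.42 and 3.09, the other risers between 0.10 and 1.54, and Tpm2 lies below 0.

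The order of the members' levels differed between the groups. In wild type the order by mean RPKM was Cnn3 (150.4), Tpm2 (23.8), Myl9 (11.0), Tpm1 (9.34), Cnn2 (5.66), Tagln2 (4.08), Acta2 (2.69), Tagln (1.05), Actg2 (0.338) and Cnn1 (0.0245). Only Myl9 and Tpm1 overlapped as neighbours in that order. In cKO Myl9 (27.9) and Acta2 (24.9) stood next to Cnn3 (178), before Tpm2 (19.5), Tpm1 (15.7), Cnn2 (12.0), Tagln (10.7) and Tagln2 (7.61). There Acta2 overlapped with both Myl9 and Tpm2, and Cnn2 with Tagln. Acta2 thus held rank 7 in wild type and rank 3 in cKO. The summed RPKM of the 10 genes was 296, 286 and 308 in cKO and 223, 199 and 203 in wild type, without overlap (exact permutation p = 0.10, the smallest possible), and most of it came from Cnn3.

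Among the 8 tested members the cKO replicates differed most in Acta2, with a ratio of 1.88 between the highest and the lowest library, and next in Tagln (1.44) and Myl9 (1.32). In all 3 genes replicate 3 was highest and replicate 2 lowest. Cnn2, Tpm1 and Tpm2 were instead lowest in replicate 1 and highest in replicate 2. By Pearson r of log2(CPM + 1) over the 6 libraries, the genes most like Acta2 among 8040 with a mean of at least 10 CPM were B230118H07Rik, Vamp4, A830082K12Rik, Sri and Ppp1r15a, with r of 0.993 to 0.995. The 6 libraries fall into 2 groups, which enters every such r, and the log2 fold changes of these genes were 0.21 to 0.88.

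Other genes of the smooth muscle contractile program were read from a list of 29 that excludes the 10. Among the 19 that passed the filter, 6 rose and 1 fell, and the median on the log2 scale was 0.21 against 0.03 for all genes tested, of which 20.9% rose and 15.9% fell. The lower count was 3 with TMM or RLE scaling and with edgeR, and 2 with DESeq2. Cald1, which encodes the actin-binding protein caldesmon, rose from 273 ± 45.8 to 505 ± 48.4 CPM (SD, n = 3 each; adjusted p = 0.000110 by limma). Itga1, a collagen-binding integrin chain gene, rose by 0.76 and Synpo2, the gene of an actin-bundling protein, by 0.50, whereas Pdlim7, which encodes a PDZ and LIM domain protein of stress fibers, fell by 0.34. Near 0 in both groups were 3 genes of differentiated smooth muscle, picked after their values were seen. Myh11, the smooth muscle myosin heavy chain, was at 0.499, 0.544 and 0.783 CPM in cKO and at 0.347, 0.614 and 0.998 CPM in wild type. Lmod1, a leiomodin that nucleates actin filaments, was at 0.107 to 0.549 CPM in cKO and at 0.299 to 0.694 CPM in wild type. Myocd, the SRF coactivator of smooth muscle, is not among the 29 but in the SRF list described below. It was at 0.142 to 0.643 and at 0.175 to 0.434 CPM. All 3 overlapped between the groups, in contrast to Acta2 and Tagln. They do not stand for the whole list. The smoothelin gene Smtn averaged 12.6 (cKO) and 12.7 (wild type) CPM. The light chain kinase gene Mylk averaged 18.4 (cKO) and 15.8 (wild type) CPM, and neither was called. The desmin gene Des was called higher, with a ratio of means of 2.13.

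**Figure D4:**
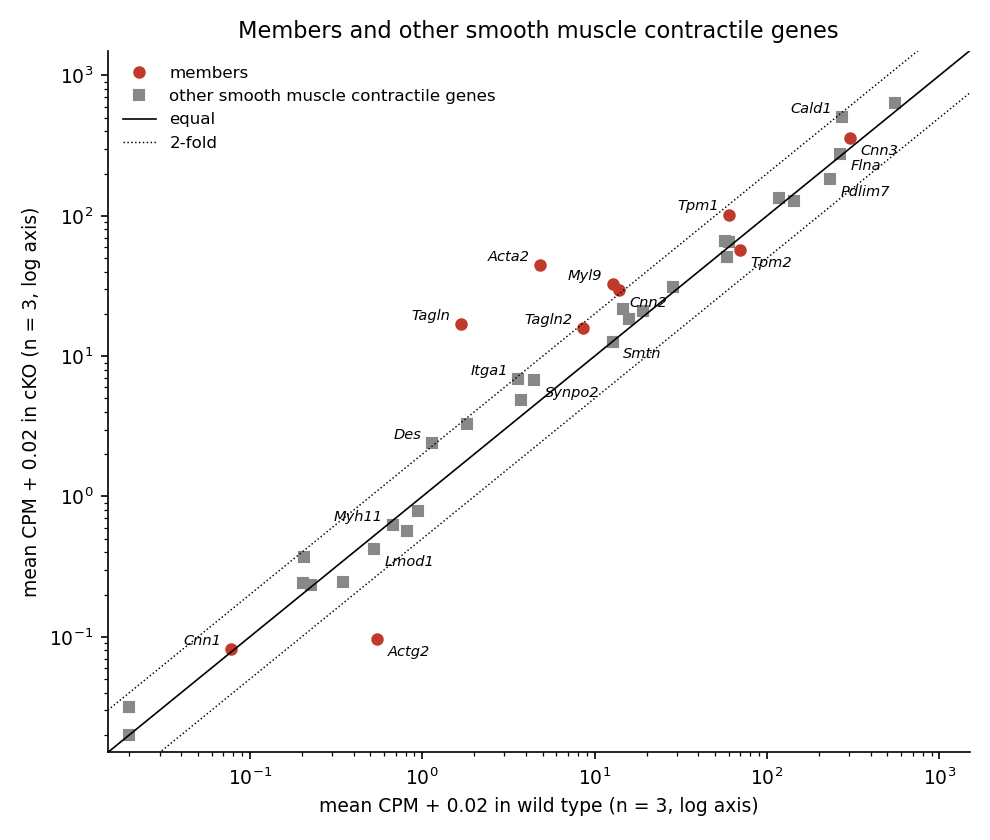
Mean CPM in cKO against wild type (log axes, 0.02 CPM added to both) for the 10 members (red) and 29 other smooth muscle contractile genes (grey), with lines for equal and 2-fold different values. Acta2 and Tagln lie far above the 2-fold line, while Myh11, Lmod1 and Cnn1 lie near the line of equal values at under 1 CPM.

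Myosin II genes and their regulators had 5 of 22 higher and 4 lower, shares near the 20.9% and 15.9% of all genes tested, and a median of -0.02 on the log2 scale. The kinase genes Rock1 (0.57) and Rock2 (0.43), whose products raise myosin light chain phosphorylation downstream of RhoA, rose. Dapk3 (-0.58), a kinase that also acts on the light chain, and Cit (-0.71), the citron kinase of cytokinesis, fell (adjusted p of 0.000142 to 0.00291 for these 4, limma). Of 17 genes of SRF, its cofactors and genes that it or its relatives regulate, 14 were tested, with 8 higher and 1 lower, and 4 higher when a mean of 5 CPM was required, where fewer genes were tested. The 1 lower call was that of Ctgf (log2 fold change -0.39, adjusted p = 0.0129, limma), and it was lost without wild-type replicate 1. Egr1, an immediate early gene, rose by 3.27, Fos by 1.82, Cyr61, a matricellular gene, by 1.35 and Elk3, an SRF partner, by 0.64. Srf itself was at 1.30, 2.03 and 2.53 CPM in cKO and at 1.99, 2.72 and 2.79 CPM in wild type, with overlapping groups (log2 fold change -0.26, adjusted p = 0.265). Its coactivator genes Mkl1 (-0.20, adjusted p = 0.247) and Mkl2 (0.23, adjusted p = 0.0562) did not pass the test either, although all cKO libraries lay above wild type for Mkl2.

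Markers of other cell types that whole lenses can carry were read from fixed lists, some of which were higher in cKO. Among all genes tested, 20.9% were higher and 15.9% lower, the shares to set beside the count of each list. Of 13 pericyte and mural markers 10 were tested, with 6 higher and 1 lower, and the lower call, of Notch3, was lost without cKO replicate 3. The summed level was 175 to 209.8 CPM in cKO and 122 to 152 CPM in wild type. Rgs5, a pericyte marker, rose from 41.4 ± 2.84 to 87.3 ± 6.93 CPM (SD, n = 3 each), a ratio of 2.11, and Pdgfrb, the receptor gene that pericytes require, had a ratio of 1.71, against 9.26 for Acta2 and 10.2 for Tagln. Mcam and Des had ratios of 1.85 and 2.13. The mural markers Higd1b and Vtn were below 1 CPM in all 6 libraries.

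Endothelial markers were higher for 12 of 15 and lower for 0. Of all genes tested 20.9% were higher and 15.9% lower, the shares to set beside every count here. The summed endothelial level was 263 to 312 CPM in cKO and 166 to 202 CPM in wild type. By adjusted p these markers were led by Tek (1.05), Cdh5 (0.63), Cldn5 (0.59) and Flt1 (0.88). Macrophage markers were higher for 8 of the 9 tested of 14, at 29.7 to 40.7 CPM in cKO and 12.2 to 16.5 CPM in wild type, and 0 of them reached a mean of 5 CPM. C1qa, Cx3cr1, Mrc1 and Laptm5 had log2 fold changes of 0.94 to 1.22. Periocular mesenchyme markers had 4 higher and 1 lower of the 7 tested of 13, with Foxc1 (0.86), Col1a2 (1.11), Col3a1 (1.28) and Prrx1 (0.74) higher. The marker that fell was Pdgfra, a growth factor receptor gene (named after its values were seen), with means of 173 ± 13.3 CPM in cKO against 211 ± 22.1 CPM (SD, n = 3 each; log2 fold change -0.28, adjusted p = 0.0210 by limma), and it made up most of the sum of this list. That summed level was 205 to 245 CPM in cKO and 215 to 260.2 CPM in wild type, Foxc2 was listed at 0, and Dcn and Foxd3 were below 1 CPM in every library. The 1 lower call failed when cKO replicate 1, cKO replicate 3 or wild-type replicate 3 was left out. Skeletal muscle markers were 12 of 16 below 1 CPM in all libraries, among them Myod1, Myog and Acta1, with 0 of 4 tested called by limma. Their summed level was 29.9 to 44.8 CPM in cKO and 44.0 to 56.3 CPM in wild type. Leaving out cKO replicate 3, or requiring a mean of 5 CPM, gave 1 lower, and dropping the filter gave 1 higher. Of 8 erythroid markers, 2 of the 4 tested were higher and 1 lower, and the lower call, of Hba-a2, was lost under 8 of 14 alternatives, TMM and RLE scaling, edgeR and DESeq2 among them. The higher call of Hba-a1 was lost under 3, among them edgeR and the fit without wild-type replicate 3. Both are α-globin genes. The other higher call, of Slc4a1 (log2 fold change 1.10, adjusted p = 0.00149 by limma), held under all 13 alternatives that tested it. The erythroid sum was 95.3 to 170.3 CPM in cKO and 93.6 to 110.4 CPM in wild type. Among lens markers 1 of 11 was higher and 2 lower, against 20.9% and 15.9% of all genes tested. Maf was higher (log2 fold change 0.50, adjusted p = 0.000134 by limma). Mip (-0.21, adjusted p = 0.0320) and Foxe3 (-0.37, adjusted p = 0.0424) were lower. The call of Mip was lost under 4 of 14 alternatives and that of Foxe3 under 6. Of the lens markers 0 were lower when cKO replicate 3 or wild-type replicate 3 was left out.

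The summed levels varied among the cKO libraries. In replicates 1, 2 and 3 the mural markers summed to 175, 209.8 and 206.5 CPM, the endothelial markers to 263, 312 and 280.3 CPM and the macrophage markers to 40.7, 36.0 and 29.7 CPM. The periocular mesenchyme markers summed to 217, 245 and 205 CPM and the erythroid markers to 170.3, 95.3 and 133 CPM. Pdgfra alone gave 163, 188 and 167 CPM of the periocular sum, so that sum says little about the other genes of its list. The skeletal muscle markers summed to 44.8 CPM in replicate 3 and to less in the others. Most of that sum was Actn2 (27.3 CPM in replicate 3) and Tnni1 (13.5 CPM), neither of them called. Myod1, Myog, Myf5 and Acta1 had at most 1 read in any cKO library. Acta2 was lowest in replicate 2 and highest in replicate 3, as given above. The lowest replicate was also replicate 2 for the erythroid sum, and the highest was also replicate 3 for the skeletal muscle sum and for Rgs5 (79.8, 88.6 and 93.5 CPM), while the endothelial, mural and periocular sums were highest in replicate 2 and the macrophage sum was lowest in replicate 3. The part of other cell types in the differences of Acta2 and its partners was not tested.

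**Figure D5:**
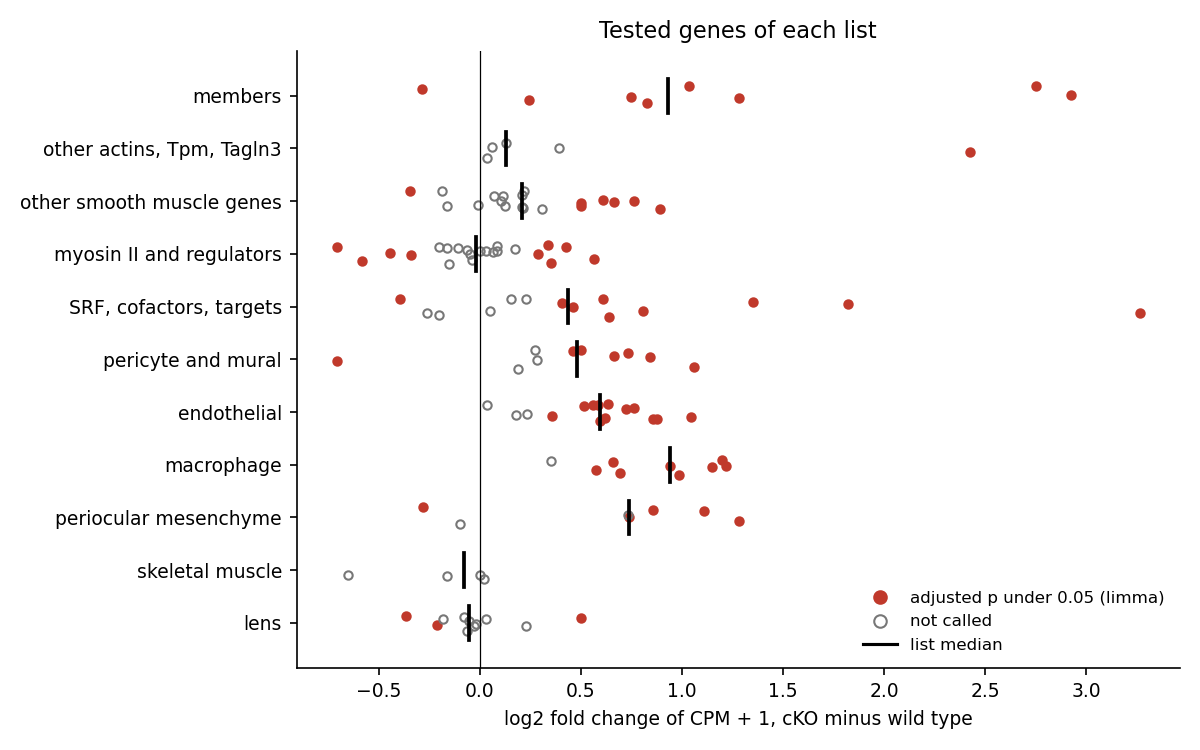
Log2 fold change of CPM + 1 (cKO minus wild type) of every tested gene in each list except the erythroid markers, with called genes filled, others open, and a black bar at the list median. The median of the members is 0.93, that of the other smooth muscle genes 0.21 and that of the pericyte and mural markers 0.48. Acta2 and Tagln lie beyond every tested gene of the cell type marker lists shown, but Egr1 of the SRF list (3.27) lies beyond both. Genes below the filter are not drawn.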

How the data were processed

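The authors deposited CPM and RPKM per gene, in 1 file per library, as the file headers name them. Per the submitters' processing notes, edgeR and the build GRCm38 were used. The aligner, the counter and the treatment of multiply mapped reads were not given in the sources used here. CPM values were whole multiples of 1 read (within 0.02 reads in 100% of values), so reads were recovered, at 0.0356 to 0.0998 CPM per read. RPKM was used for levels between genes and for family shares.

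The main test was limma 3.58.1 (trend, robust) in R 4.3.3 on log2(CPM + 1), with group as the only term, after a filter of 1 CPM or more in 3 or more libraries, with Benjamini-Hochberg adjustment over all genes tested. It was tested on simulated counts. Alternatives were TMM and RLE scaling, a pseudocount of 0.1, no filter or a mean of at least 5 CPM, the replicate number as a block, edgeR 4.0.16 and DESeq2 1.42.0 on recovered reads, and leaving out each library. Sums and shares were compared by exact permutation over libraries. The members and lists were chosen with earlier results of these data known. All 10 members are named, with up to 4 genes per other list by smallest adjusted p and the 5 genes most like Acta2. Others were named after their values were seen, namely Myh11, Lmod1, Myocd, Srf, Mkl1, Mkl2, Actb, Actg1, Tpm3, Tpm4 and Myl6. So were Myl12a, Myl12b, Notch3, Pdgfra, Ctgf, Smtn, Mylk, Actn2, Tnni1, Twist1 and genes near 0. Positions, overlaps and 50-base words come from GENCODE M21 (GRCm38).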

Additional observations from a re-analysis of the deposited data

How the results depend on the processing

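Under 14 alternatives, 112 of 112 values of the 8 tested members kept their direction, 6 members kept their call throughout, and 5 calls were lost (4 of Tpm2, 1 of Cnn3). The number of members higher was 7 under every alternative except without wild type replicate 2, where it was 6. The number lower was 0 to 1 over the fits that leave out 1 library, being 0 without cKO replicate 1, without cKO replicate 3 and without wild-type replicate 1. With no filter, where 19059 genes were tested, the call of Tpm2 was lost (adjusted p = 0.0519, limma). Actg2, no longer filtered out, was called lower in that fit. The cause of these changes was not tested. As CPM in place of RPKM, the difference in the summed members was 181 in place of 88.2 and that in the share of actin from Acta2 was 2.24 in place of 3.31 percentage points, because reads are then not divided by gene length. Neither cytoplasmic actin was called under any alternative. With 1 library left out the log2 fold change of Actb ran from -0.017 (without cKO replicate 1) to 0.12, and that of Actg1 from -0.025 (without wild-type replicate 1) to 0.093, while RLE scaling gave Actg1 a value of -0.00085. Same-numbered libraries deviated together with r of 0.33, -0.03 and 0.15, so the numbers were not taken as pairs, and with the replicate block 7 members were higher and 1 lower. Over all genes, the block raised the count to 2916 higher and 2249 lower. By it Tpm4 (adjusted p = 0.00866, limma) and Mkl2 (0.0343) were called, and Hba-a1 (0.0765) and Foxe3 (0.270) were not. The median of all genes was 0.03, and 0.0040 with TMM and -0.0053 with RLE scaling. Depth limits Actg2, Cnn1, Myh11, Lmod1 and Myocd, which rest on few reads, and Acta2 and Tagln in wild type.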

Other observations

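The genes given here lay below the filter and were named after their values were seen. Ankrd1, a stress-responsive gene of muscle that SRF and YAP regulate, was at 0.599, 0.693 and 0.925 CPM in cKO replicates 1, 2 and 3 and at 0.0867, 0 and 0.0998 CPM in wild type, on 52 and 2 reads in all. Acta1, the skeletal muscle α-actin gene, was at 0, 0.0495 and 0.0356 CPM in cKO and at 0.260, 0.0877 and 0.898 CPM in wild type, on 2 and 13 reads, 9 of the latter in replicate 3, too few to compare the groups. Actc1, the cardiac α-actin gene, overlapped between the groups, at 0 to 0.285 and 0.0877 to 0.399 CPM. None of the 3 was tested.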
